A study of Homo sapiens with 12 samples.

Results

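The genotype by tunicamycin interaction asks, gene by gene, whether A549 cells without TUSC3 answered ER stress differently from control cells. It was taken as the change from DMSO to tunicamycin (TM) in TUSC3 KO cells minus the same change in control cells, on the log2 scale, so that a value of 1 is a response 2-fold higher in TUSC3 KO cells. All 12 arrays of the series entered it, and 22411 genes with 1 symbol each were tested. At an adjusted p under 0.05 (limma, Benjamini-Hochberg over all genes), 1773 genes were called, which is 7.91% of those tested.

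A549 is a human lung adenocarcinoma cell line. RNA was measured on whole-transcript microarrays in 4 groups of 3 arrays: control cells under DMSO, control cells under TM, TUSC3 KO cells under DMSO and TUSC3 KO cells under TM. TM was given at 3 ug/ml for 16 h and DMSO was its vehicle, and both genotypes were grown in the same serum-containing medium. The KO cells were made with CRISPR and grown out from a sorted single cell, so that the genotype effect is that of 1 clone, and no source says that the 3 arrays of a group came from separate cultures. The p-values therefore measure the spread between these arrays, which may be technical.

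TUSC3 is a subunit of the oligosaccharyltransferase, the complex of the ER membrane that moves a preassembled glycan onto asparagines of new proteins. TM blocks the first step in making that glycan, and the unglycosylated proteins that then gather in the ER set off the unfolded protein response (UPR). Its sensors IRE1, PERK and ATF6 raise chaperones, degradation factors, amino acid supply and the transcription factors ATF4 and CHOP, while protein synthesis and the cell cycle slow down.

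The arrays resembled each other closely, with correlations of 0.996 to 0.999 within groups and none below 0.983 between any pair. The keratins KRT8 and KRT18 lay between 11.47 and 11.93 in every group, and the surfactant genes and NKX2-1 of lung epithelium lay no higher than 5.79, not far above the median of all features, 4.77. Values under that median are called dim below, since the files hold no call of detection. Of 14 markers of fibroblasts, blood and endothelium, 9 were dim in all groups, and the mean of the list stayed between 4.07 and 4.22 on all 12 arrays. TUSC3 itself was 7.16, 7.03 and 7.10 in control cells under DMSO and 5.51, 5.50 and 5.57 in TUSC3 KO cells, a fall of 1.57 (SE 0.07), and its interaction of 0.23 (SE 0.09) was not called.

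The responses of the 2 genotypes to TM were alike in outline, with a correlation of 0.787 across genes, which are not independent replicates. The call reached 24.8% of genes for TM in control cells and 27.4% for TM in TUSC3 KO cells. For the interaction, 936 genes (4.18% of those tested) were called higher in TUSC3 KO cells and 837 (3.73%) lower. Higher means a larger rise, a smaller fall or a rise in place of a fall, and lower means the opposite. Of the genes tested, 6531 were dim in all groups, and 77 of those were called. The shares over all genes given below include these dim genes, so they lie under the share among brighter genes. The called differences were mostly small, with a median size of 0.31 and a range from 0.11 to 1.85. The large ones lay on the higher side: 215 called genes were higher by over 0.5 against 54 that were lower by over 0.5, and 23 against 2 differed by over 1. The median of all tested genes was -0.03, and the 5th and 95th percentiles lay at -0.24 and 0.26.

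**Figure D1:**
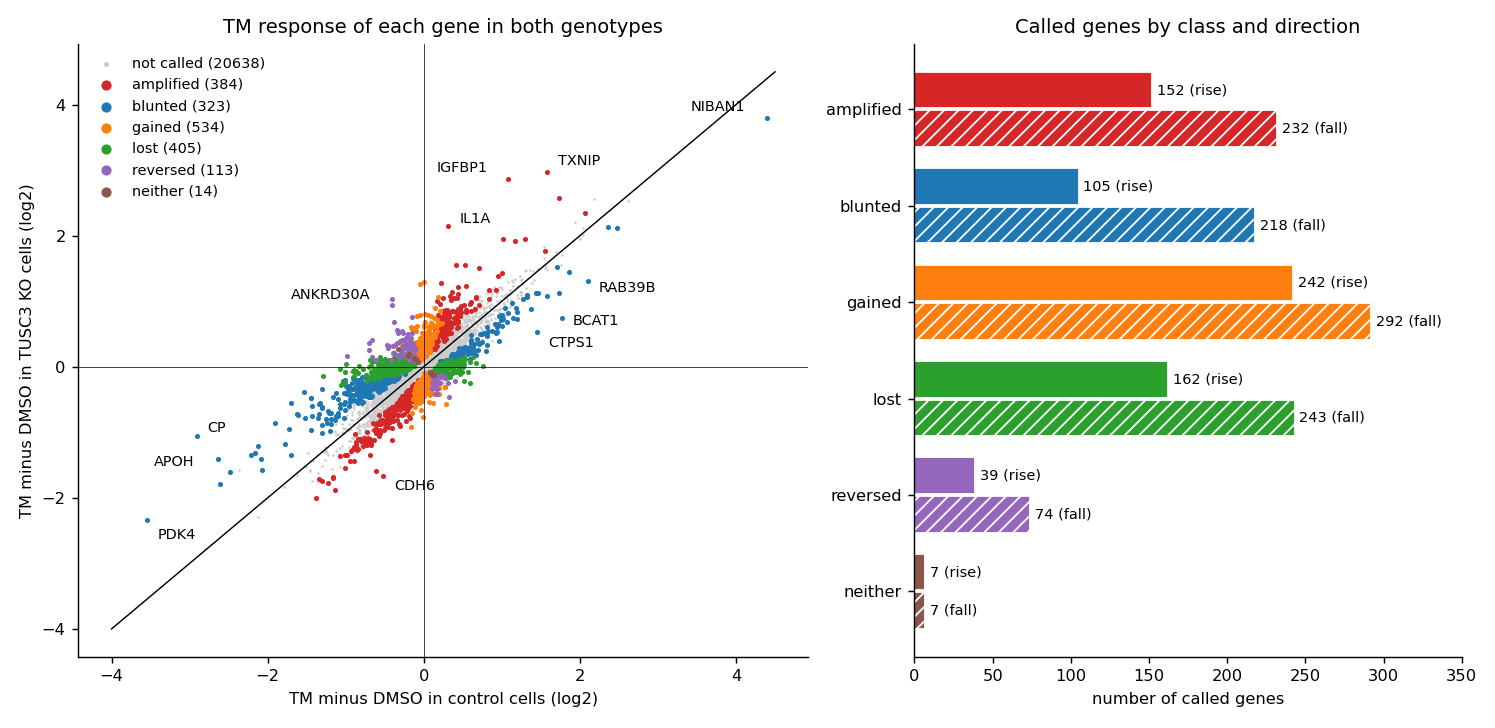
The left panel plots, for each of 22411 genes, the TM response of control cells (x axis) against that of TUSC3 KO cells (y axis), both as log2 differences, with called genes coloured by class and a line where both are equal. The right panel gives the number of called genes in each class, for rises (plain bars) and falls (hatched bars). CP and PDK4 lie far above the line among the genes that fell, and BCAT1 and CTPS1 lie below it among those that rose.

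Called genes were sorted by which of the 2 TM responses was itself called. In 384 genes both were called in the same direction and the response of TUSC3 KO cells was larger (amplified), and in 323 it was smaller (blunted). In 534 genes TM was called in TUSC3 KO cells alone (gained), in 405 in control cells alone (lost), in 113 it was called in opposite directions (reversed) and in 14 in neither genotype. The interaction is tested in each of these genes, but the label rests on thresholds, and a gene called lost can still have moved a little in TUSC3 KO cells. Falls outnumbered rises in every class but the last: 232 falls against 152 rises were amplified, 218 against 105 blunted, 292 against 242 gained, 243 against 162 lost and 74 against 39 reversed. The median amplified fall went from -0.30 in control cells to -0.63 in TUSC3 KO cells, and the median blunted fall from -0.78 to -0.33.

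A difference in response can come with a difference under DMSO, under TM or under both. The genotypes differed under TM only in 766 of the 1773 called genes, under DMSO only in 454, under both in 470 and in neither condition in 83. For comparison, 12.7% of all genes differed between the genotypes under DMSO and 17% under TM. In 186 of the 470, TUSC3 KO cells were on opposite sides of the control in the 2 conditions. Among the 218 blunted falls, 99 started lower in TUSC3 KO cells under DMSO and 140 ended higher under TM, and among the 232 amplified falls 88 started higher and 165 ended lower. These comparisons share arrays with the interaction and add no separate evidence for it.

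The genes with the strongest TM responses were then compared between the genotypes. Among all genes tested, 4.18% were called higher in the interaction and 3.73% lower. Of 122 genes that TM lowered at least 2-fold in control cells, 64 (52.5%) were called with a smaller fall in TUSC3 KO cells and 10 with a larger one, and the median ratio of the KO response to the control response was 0.69. Of 102 genes raised at least 2-fold in control cells, 26 (25.5%) had a smaller rise and 9 a larger one, and the median ratio was 0.94. Choosing strong responders in 1 genotype makes their response in the other look smaller. The chosen response is itself a term of the interaction, so these shares are partly built in. The same was therefore done from the other side, where this holds as well. Of 118 genes lowered at least 2-fold in TUSC3 KO cells, 46 (39.0%) had a smaller fall in control cells and 13 a larger one. The median ratio was 0.77. Of 122 genes raised at least 2-fold in TUSC3 KO cells, 34 (27.9%) had a smaller rise in control cells and 13 a larger one. There the median ratio was 0.88. The difference between the shares of falls and rises was not tested.

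CP had the largest interaction of all. It encodes ceruloplasmin, the copper-carrying ferroxidase of plasma. CP was 8.19, 8.0 and 8.19 in control cells under DMSO, 5.21, 5.20 and 5.24 in control cells under TM, 6.83, 6.78 and 6.91 in TUSC3 KO cells under DMSO and 5.84, 5.81 and 5.70 in TUSC3 KO cells under TM. No 2 groups overlapped: CP fell by 2.91 in control cells and by 1.06 in TUSC3 KO cells, from a start that was lower in the KO (interaction 1.85, SE 0.08, adjusted p = 5.9e-07). APOH, a plasma apolipoprotein that binds phospholipids, fell by 2.63 in control cells and by 1.41 in TUSC3 KO cells. Its control arrays under TM were 5.69, 6.24 and 6.04 and its KO arrays under TM 6.87, 6.90 and 6.91, so that the genotypes did not overlap there, and the interaction was 1.22 (SE 0.14, adjusted p = 0.00044). FGA, the alpha chain of fibrinogen, fell by 0.99 in control cells and was 0.04 away from DMSO in TUSC3 KO cells, an interaction of 1.03 (SE 0.05, adjusted p = 5.9e-07).

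TFPI, the inhibitor that stops coagulation at tissue factor, was reversed. It was 8.31, 8.04 and 8.18 in control cells under DMSO and 7.77, 7.74 and 7.79 under TM, but 7.08, 7.06 and 7.09 in TUSC3 KO cells under DMSO and 7.98, 7.94 and 8.11 under TM. TM thus lowered TFPI by 0.41 in control cells and raised it by 0.94 in TUSC3 KO cells, which brought the KO from 1.10 below the control to 0.24 above it (interaction 1.35, SE 0.09, adjusted p = 6.2e-06). ITIH2, a heavy chain of the inter-alpha-trypsin inhibitors of plasma, went the other way. It fell by 0.62 in control cells and by 1.59 in TUSC3 KO cells, where it had been 1.66 higher under DMSO (interaction -0.98, SE 0.09, adjusted p = 6.4e-05). The fall in control cells ended at a dim mean of 4.47, which may limit its size.

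The gene lists here and below were written from general knowledge, with earlier results of these data known. Their counts describe these data and are no separate support. Of 19 glucose-sensing and insulin-responsive genes, 6 were called higher and none lower, beside 4.18% called higher among all genes, and the list's median was 0.11. Among the 6, PDK4, IGFBP1 and TXNIP also belong to the 12 highest genes. PDK4, the kinase that shuts off pyruvate dehydrogenase, was 8.57, 8.49 and 8.54 in control cells under DMSO and 8.47, 8.43 and 8.49 in TUSC3 KO cells, so that both genotypes started together. Under TM it was 4.95, 5.0 and 5.02 in control cells and 6.06, 6.10 and 6.19 in TUSC3 KO cells. The fall was 11.7-fold in control cells and 5.08-fold in TUSC3 KO cells (interaction 1.20, SE 0.05, adjusted p = 7.5e-07). IGFBP1, a secreted binding protein of insulin-like growth factors, rose from 6.92, 6.92 and 7.02 to 8.08, 8.09 and 7.95 in control cells and from 6.32, 6.48 and 6.49 to 9.26, 9.31 and 9.28 in TUSC3 KO cells. That is a rise of 2.12-fold against 7.25-fold, from a lower start to a higher end (interaction 1.77, SE 0.07, adjusted p = 5.9e-07). TXNIP, which binds thioredoxin and limits glucose uptake, was dim in both genotypes under DMSO and rose to 5.92, 5.85 and 6.06 in control cells and to 7.51, 7.44 and 7.38 in TUSC3 KO cells. SESN3, a sestrin that restrains mTORC1, rose by 0.61 in TUSC3 KO cells alone, and 3 of its 4 group means were dim.

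MUC13 and CDH17 were among the 12 highest and TFF1 among the reversed genes. MUC13, a transmembrane mucin, was 7.71, 7.62 and 7.70 in control cells under DMSO and 6.65, 6.63 and 6.81 under TM, but 8.09, 8.16 and 8.20 in TUSC3 KO cells under DMSO and 8.32, 8.29 and 8.36 under TM. TM lowered it by 0.98 in control cells and raised it by 0.17 in TUSC3 KO cells (interaction 1.15, SE 0.07, adjusted p = 5.4e-06). TFF1, a secreted trefoil peptide that protects mucosa, fell by 0.70 in control cells and rose by 0.36 in TUSC3 KO cells (interaction 1.06, SE 0.14, adjusted p = 0.00087). CDH17, the liver-intestine cadherin, was 6.60, 6.15 and 6.57 in control cells under DMSO and between 4.96 and 5.23 on all 9 other arrays. Its interaction of 1.15 (SE 0.14, adjusted p = 0.00057) therefore lies in a fall of 1.28 in control cells to the level that TUSC3 KO cells already had, which is near the dim limit.

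FER1L6, a member of the ferlin family of membrane proteins, and SLITRK6, a leucine-rich transmembrane protein, rose in TUSC3 KO cells only. FER1L6 was between 4.41 and 4.65 on the 9 arrays of the other groups and 5.79, 5.75 and 5.77 in TUSC3 KO cells under TM (interaction 1.29, SE 0.05, adjusted p = 5.9e-07). SLITRK6 had an interaction of 1.31 (SE 0.17, adjusted p = 0.00081) with all of its group means dim. ANKRD30A, which encodes an ankyrin repeat protein, fell by 0.41 in control cells and rose by 1.03 in TUSC3 KO cells, from a start 2.94 lower (interaction 1.44, SE 0.18, adjusted p = 0.00057). That start, a mean of 4.11 in TUSC3 KO cells under DMSO, was dim.

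FLRT3, a leucine-rich membrane protein of cell adhesion, and RDH10, a retinol dehydrogenase of the retinoic acid pathway, were also reversed. RDH10 was 7.35, 7.38 and 7.45 in control cells under DMSO and 6.96, 6.97 and 7.10 under TM, and went from 7.60, 7.65 and 7.72 to 8.29, 8.30 and 8.42 in TUSC3 KO cells (interaction 1.06, SE 0.07, adjusted p = 1e-05). FLRT3 fell by 0.66 and rose by 0.41, an interaction of 1.07 (SE 0.10, adjusted p = 9.4e-05). ID4, an inhibitor of basic helix-loop-helix factors, fell by 1.07 in control cells and stayed dim in TUSC3 KO cells (interaction 1.03, SE 0.13), and PIERCE2 rose by 1.06 in TUSC3 KO cells against 0.18 in control cells, where it was not called (interaction 0.88, SE 0.10).

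CDH6, a cadherin of the embryonic kidney, had the lowest interaction of the called genes. It was 4.59, 4.60 and 4.60 in control cells under DMSO, 4.08, 4.0 and 4.14 in control cells under TM, 6.53, 6.47 and 6.58 in TUSC3 KO cells under DMSO and 4.77, 4.91 and 4.92 in TUSC3 KO cells under TM. TUSC3 KO cells had started 1.93 above the control and lost most of that distance, so that the interaction was -1.14 (SE 0.07, adjusted p = 6.2e-06), with both control groups dim. CTPS1, which makes CTP from UTP, started alike in the 2 genotypes, at 7.78, 7.77 and 7.83 in control cells and 7.74, 7.77 and 7.80 in TUSC3 KO cells. TM raised it to 9.22, 9.26 and 9.27 in control cells and to 8.27, 8.25 and 8.37 in TUSC3 KO cells, which is a rise of 2.74-fold against 1.44-fold (interaction -0.93, SE 0.05, adjusted p = 3.5e-06).

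BCAT1, the cytosolic transaminase of branched-chain amino acids and a gene of the ATF4 program, rose from 5.79, 5.67 and 5.83 to 7.53, 7.53 and 7.54 in control cells. In TUSC3 KO cells it rose from 5.0, 5.11 and 5.07 to 5.77, 5.71 and 5.92, which only reached the level of untreated control cells (interaction -1.03, SE 0.08, adjusted p = 2.7e-05). RAB39B, a small GTPase, rose by 2.11 in control cells and by 1.31 in TUSC3 KO cells from dim levels in both (interaction -0.80, SE 0.15, adjusted p = 0.0078). SLC6A15, a transporter of neutral amino acids, rose in control cells only, by 0.76, with all of its group means dim. NRG1, a ligand of the receptors ERBB3 and ERBB4, rose from 8.28, 8.18 and 8.22 to 8.77, 8.80 and 8.83 in control cells and was 8.31, 8.32 and 8.31 and then 8.15, 8.27 and 8.26 in TUSC3 KO cells, where no TM response was called (interaction -0.66, SE 0.05, adjusted p = 3.2e-05).

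The other genes among the 12 lowest were of mixed kinds. NAV3, a microtubule-binding protein, rose by 0.32 in control cells and fell by 0.45 in TUSC3 KO cells. GLIPR1, a secretory protein of the CAP family, fell by 0.76 in TUSC3 KO cells alone, from a start 1.17 higher, and ASB4, an adaptor of ubiquitin ligases, fell by 1.13 in control cells and by 1.88 in TUSC3 KO cells to dim levels in both. NEIL3, a DNA glycosylase, fell by 0.41 and by 1.12, and SRRM5 had an interaction of -0.73 with the largest error among them (SE 0.20, adjusted p = 0.044), and its call was lost under 12 of 19 other settings. CDC20, the activator of the anaphase-promoting complex, was 8.25, 8.37 and 8.41 in control cells under DMSO, 8.48, 8.48 and 8.44 under TM and 8.49, 8.46 and 8.49 in TUSC3 KO cells under DMSO, and fell to 7.87, 8.03 and 7.89 in TUSC3 KO cells under TM (interaction -0.67, SE 0.07, adjusted p = 0.00013). Its pseudogene CDC20P1 had an interaction of -0.62 (SE 0.09), and probes that match both cannot tell them apart.

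**Figure D2:**
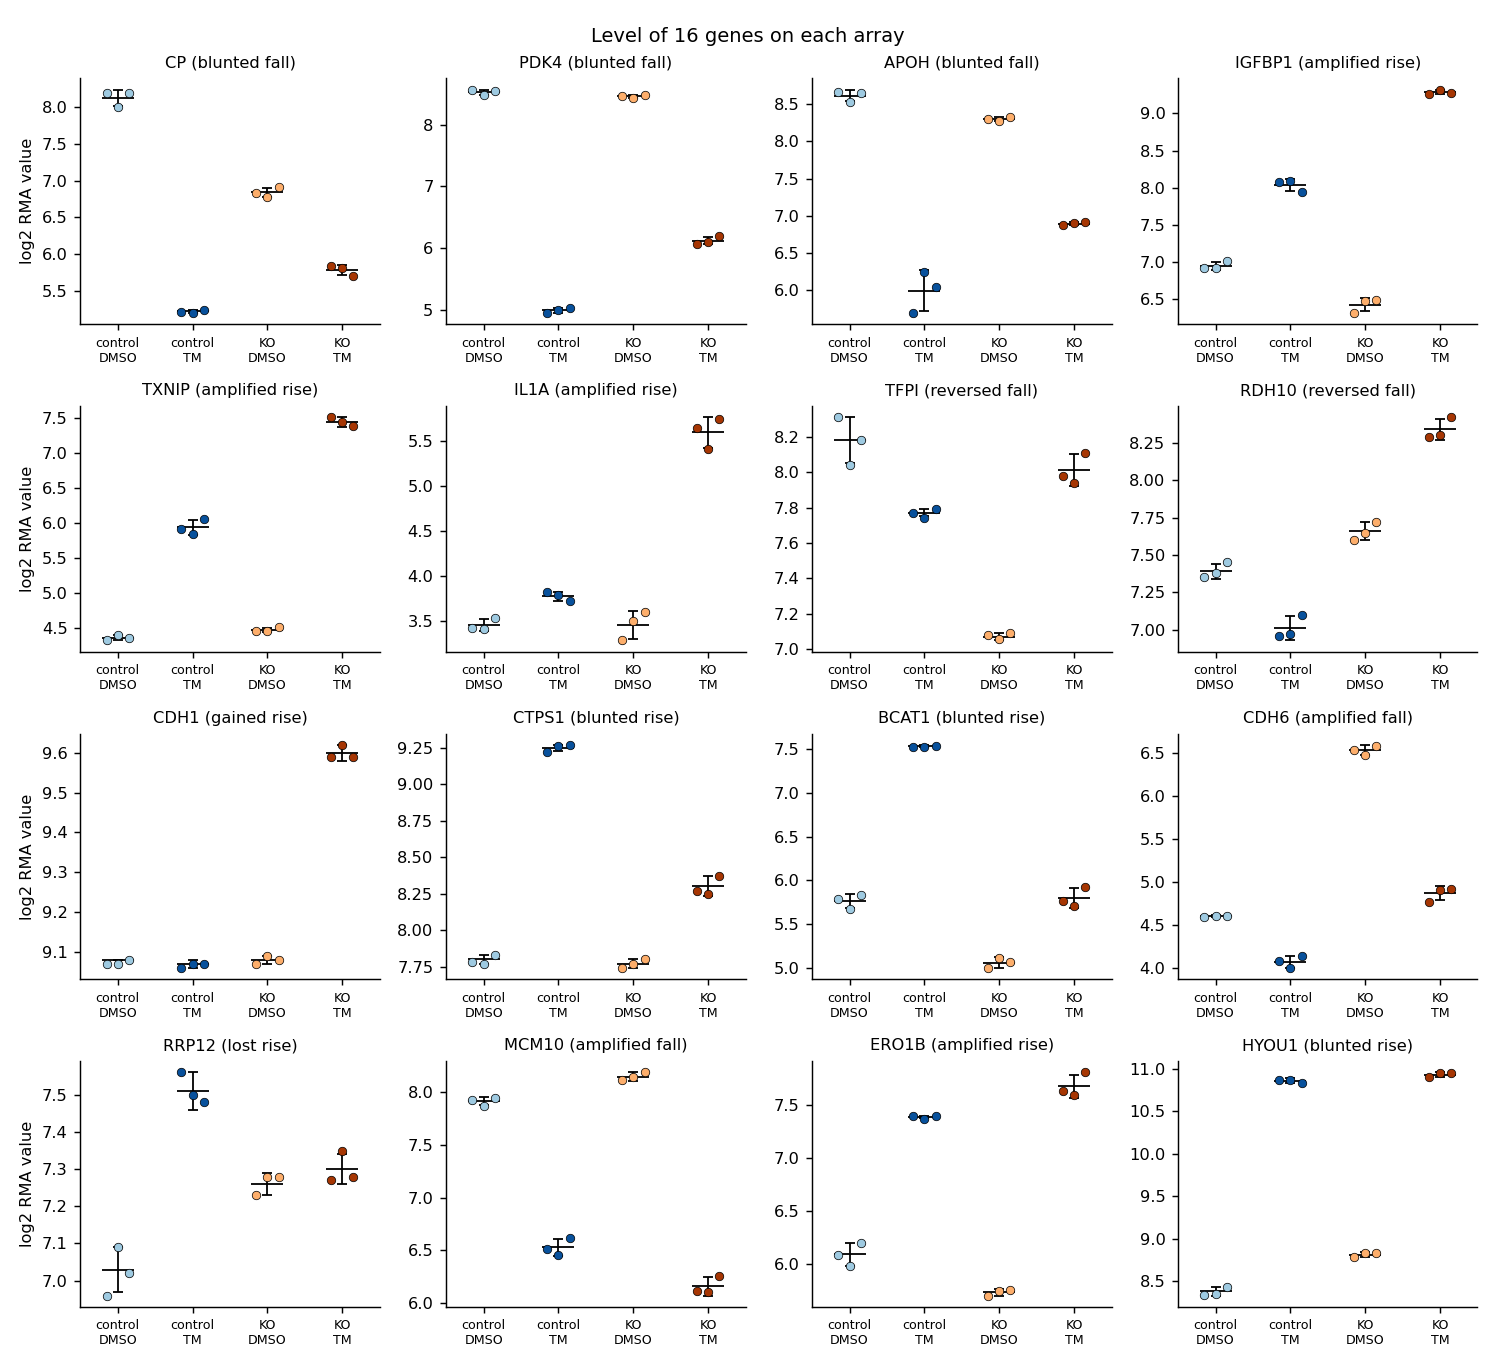
Log2 RMA values (y axis, own scale in each panel) of 16 genes on the 12 arrays, in the 4 groups of genotype and treatment (x axis). Points are arrays and bars the mean ± SD of 3 arrays. PDK4 and CTPS1 start together in the 2 genotypes and part under TM, CDH1 rises only in TUSC3 KO cells under TM, and HYOU1 ends alike from unequal starts.

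The ER chaperones and folding enzymes, which the UPR is known to raise, rose in both genotypes. Of 29 tested, 27 rose with TM in control cells and 28 in TUSC3 KO cells, with median responses of 0.86 and 0.85. For the interaction 2 were called higher and 4 lower, beside 7.91% called among all genes, and the list's median was -0.02, against -0.03 for all genes. HSPA5 (BiP), the chaperone that holds the sensors inactive, was 11.14, 11.07 and 11.17 in control cells under DMSO and 11.30, 11.28 and 11.27 in TUSC3 KO cells, and 12.84, 12.82 and 12.82 against 12.84, 12.73 and 12.85 under TM. The TM groups overlapped and the rise was 1.70 against 1.52 (interaction -0.18, SE 0.05, adjusted p = 0.04), a call that was lost under 12 of 19 other settings. HYOU1, the large chaperone that exchanges the nucleotide of BiP, behaved alike at a larger size: it rose by 2.48 and by 2.12 (interaction -0.36, SE 0.04, adjusted p = 0.00051), from a start 0.44 higher in TUSC3 KO cells. FKBP11, a prolyl isomerase, had an interaction of -0.22 (adjusted p = 0.037), a call that was lost under 10 of the 19.

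The oxidases that reoxidize protein disulfide isomerases went up instead. ERO1B was 6.08, 5.98 and 6.20 in control cells under DMSO and 7.40, 7.37 and 7.40 under TM, and rose from 5.70, 5.74 and 5.75 to 7.63, 7.60 and 7.81 in TUSC3 KO cells (interaction 0.65, SE 0.09, adjusted p = 0.0009). ERO1A had no called TM response in control cells and rose by 0.41 in TUSC3 KO cells (interaction 0.41, SE 0.06, adjusted p = 0.0022).

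HSPA5 and ERO1B are shown with the stretch of promoter that holds an ER stress response element, which NF-Y and ATF6 bind, because they carry the same element and moved to opposite sides in the interaction. The 2 windows come from RefSeq promoters on GRCh38.p14, chr9:125241385-125241414 (minus strand) and chr1:236282177-236282206 (minus strand), read 5′ to 3′ along the gene, with the parts CCAAT and CCACG, 9 bases apart, or their reverse complements in capitals.
HSPA5: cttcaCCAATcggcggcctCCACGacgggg
ERO1B: gcccgCGTGGtcccgcctcATTGGccgccg
The element was searched on both strands from 250 bases before to 50 bases after each gene's start. It was found in 17 of 15341 promoters of tested genes (0.111%). HSPA5 and ERO1B were the called genes among the 17, and XBP1, CALR and CANX, which also hold it, had interactions of 0.23, -0.06 and -0.07 that were not called.

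Of 24 genes of ER-associated degradation, 3 were called higher and 1 lower, beside 4.18% and 3.73% of all genes. ERLEC1, a lectin that reads trimmed glycans, went from 8.58, 8.51 and 8.57 to 8.78, 8.85 and 8.87 in control cells and from 8.17, 8.10 and 8.19 to 9.08, 8.87 and 9.12 in TUSC3 KO cells (interaction 0.59, SE 0.08, adjusted p = 0.0013). EDEM3, a mannosidase that marks misfolded glycoproteins, and UBXN4, an anchor for the ATPase p97, rose in TUSC3 KO cells alone, by 0.47 and 0.36. HERPUD1, a scaffold of the HRD1 ligase, rose by 2.36 in control cells and by 2.13 in TUSC3 KO cells (interaction -0.23, SE 0.05). SYVN1, the ligase itself, rose by 1.55 and 1.5, and its interaction of -0.05 had a 95% interval from -0.20 to 0.10.

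Of 39 genes of ER translocation and vesicle traffic, 5 were called higher, 1 lower and 33 not at all, beside 4.18% called higher among all genes, and the median was 0.07. KDELR3, a receptor that returns escaped chaperones to the ER, was between 6.81 and 7.05 on the 9 arrays of the other groups and 7.61, 7.56 and 7.79 in TUSC3 KO cells under TM (interaction 0.54, SE 0.08, adjusted p = 0.0016). KDELR1, its relative, fell by 0.10 in control cells and rose by 0.12 in TUSC3 KO cells, a call that was lost under 2 of 19 other settings. MIA3, which loads large cargo at ER exit sites, and COPB2, a subunit of the COPI coat, had larger rises in TUSC3 KO cells, with interactions of 0.30 (adjusted p = 0.039) and 0.24 (adjusted p = 0.04), and their calls were lost under 11 and 13 of the 19. For SEC61A1, which forms the translocation pore, the rise was 1.04 against 0.89 (interaction -0.15, SE 0.04, adjusted p = 0.041), which was lost under 11.

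Windows that hold the unfolded protein response element TGACGTGG, bound by ATF6 and XBP1, are shown for HYOU1, lower in the interaction, and for KDELR3, higher. They are RefSeq promoter sequence of GRCh38.p14 at chr11:119057375-119057404 (minus strand) and chr22:38468039-38468068 (plus strand), with the element or its reverse complement in capitals.
HYOU1: cgctggccccgTGACGTGGtccaatcccag
KDELR3: ggccgccctggCCACGTCAccgcccggcca
The element was found in 131 of 15341 promoters (0.854%), in 9 of 710 promoters of genes called higher (1.27%) and in 6 of 675 promoters of genes called lower (0.889%). A match is a match of letters only.

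Among 19 UPR sensors and transcription factors, 3 were called, all higher, beside 4.18% called higher among all genes. CREB3L2, an ER-bound factor of the ATF6 type, rose by 0.25 and by 0.52 (interaction 0.28, SE 0.05), and NFE2L2, the antioxidant factor NRF2, by 0.25 and by 0.45 (interaction 0.20, SE 0.04). CREB3L1, another ER-bound factor, fell by 0.43 in control cells alone. DDIT3, which encodes CHOP, rose from 4.40, 4.43 and 4.63 to 7.10, 7.10 and 7.10 in control cells and from 4.48, 4.61 and 4.57 to 7.07, 7.01 and 7.19 in TUSC3 KO cells. The 2 rises overlapped in start and end, and the difference of -0.08 had a 95% interval from -0.28 to 0.13. The list of N-glycan synthesis and the oligosaccharyltransferase, the machinery to which TUSC3 belongs, held 33 tested genes. Beside 7.91% of all genes, 12.1% of the list was called, 2 higher and 2 lower. These were GFPT1, the entry enzyme of the hexosamine pathway (0.21), DPM1, which makes dolichol-phosphate mannose (0.21), ALG3, a mannosyltransferase (-0.27), and KRTCAP2, an oligosaccharyltransferase subunit (-0.15). The calls of GFPT1, DPM1 and KRTCAP2 were lost under 13, 10 and 9 of 19 other settings. STT3B, the catalytic subunit that works together with TUSC3, rose by 0.42 and 0.58, and its difference of 0.16 (SE 0.06) was not called.

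Of 39 tested targets of ATF4 and CHOP, 32 rose with TM in control cells and 34 in TUSC3 KO cells. For the interaction (median -0.08) 10 were called lower, 4 higher and 25 not at all, beside 3.73% lower and 4.18% higher among all genes. All 10 lower members were blunted rises. NIBAN1, a regulator of translation under stress, had the largest TM response of the list: it rose from 3.76, 3.72 and 3.84 to 8.13, 8.25 and 8.12 in control cells and from 3.86, 3.87 and 3.93 to 7.65, 7.60 and 7.78 in TUSC3 KO cells (interaction -0.60, SE 0.08, adjusted p = 0.00073). SLC38A2, a transporter of neutral amino acids, was between 10.62 and 10.69 on the 9 arrays of the other groups and 11.18, 11.11 and 11.21 in TUSC3 KO cells under TM (interaction 0.54, SE 0.04, adjusted p = 1.5e-05). CTH, which makes cysteine, fell in control cells alone (interaction 0.47), and 3 of its group means were dim.

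The cytosolic tRNA synthetases charge tRNAs with amino acids, and ATF4 raises many of them. Of 19 tested, 8 were called lower, none higher and 11 not at all, beside 3.73% called lower among all genes, and the median was -0.17. WARS1 rose by 1.86 and by 1.44, from a start 0.50 higher in TUSC3 KO cells, to 9.78, 9.83 and 9.82 in control cells and 9.84, 9.84 and 9.96 in TUSC3 KO cells (interaction -0.42, SE 0.06, adjusted p = 0.001). YARS1 rose by 0.72 and by 0.36 (interaction -0.36, SE 0.06), and AARS1 by 1.27 and 1.04 (interaction -0.23, SE 0.06, adjusted p = 0.035), a call that was lost under 10 of 19 other settings. FARSA and FARSB, the subunits of the phenylalanyl enzyme, rose by 0.21 and 0.20 in control cells and were -0.13 and -0.15 in TUSC3 KO cells, where the second was called a fall.

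The window of BCAT1 that holds the CEBP-ATF response element TGATGNAAT, bound by ATF4 and C/EBP factors, is given as the sequence of the gene with the largest blunted rise. It is RefSeq sequence of GRCh38.p14 at chr12:24949130-24949159 (minus strand), with the fixed letters in capitals.
BCAT1: gtcttcctgcTGATGcAATccgctaggtcg
This element was found in 109 of 15341 promoters (0.711%), in 6 of 710 promoters of genes called higher (0.845%) and in 5 of 675 of genes called lower (0.741%).

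Ribosome biogenesis is the making of ribosomal RNA and its assembly with proteins in the nucleolus. All 42 tested genes of this list had an interaction below 0, 28 (66.7%) were called lower and none higher, beside 3.73% called lower among all genes, and the median was -0.28. TM raised 14 of the 42 in control cells and none in TUSC3 KO cells, and lowered 3 in control cells and 24 in TUSC3 KO cells. The median response was 0.11 in control cells and -0.17 in TUSC3 KO cells. Of the 28, 14 were gained falls, 7 lost rises, 4 reversed and 2 amplified falls, and 1 was called in neither genotype.

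The mean of the 42 genes was 7.78, 7.73 and 7.82 in control cells under DMSO and 7.87, 7.89 and 7.88 under TM, and 7.88, 7.88 and 7.90 in TUSC3 KO cells under DMSO and 7.69, 7.67 and 7.76 under TM. The control group under DMSO thus lay below the KO group, and under TM the order was the opposite, with no overlap in either condition. POLR1E, a subunit of RNA polymerase I, rose by 0.14 in control cells and fell by 0.41 in TUSC3 KO cells (interaction -0.55, SE 0.07, adjusted p = 0.00044). RRP12, a factor of small-subunit export, rose from 6.96, 7.09 and 7.02 to 7.56, 7.50 and 7.48 in control cells and stayed at 7.23, 7.28 and 7.28 and then 7.27, 7.35 and 7.28 in TUSC3 KO cells (interaction -0.45, SE 0.06, adjusted p = 0.00061). BOP1 and UTP20, assembly factors of the large and the small subunit, fell in TUSC3 KO cells alone, by 0.39 and 0.33, as did NCL, the abundant nucleolar protein nucleolin, by 0.23.

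The 5 reversed rises named by rank also held NOL6, NOLC1 and IPO4. NOL6, a nucleolar RNA-associated protein, was 7.10, 7.17 and 7.23 in control cells under DMSO and 7.49, 7.48 and 7.45 under TM, and went from 7.68, 7.75 and 7.76 down to 7.44, 7.49 and 7.51 in TUSC3 KO cells. The TM groups overlapped and the difference lay in the DMSO groups, 0.56 apart (interaction -0.55, SE 0.05, adjusted p = 9.8e-05). NOLC1, a nucleolar chaperone, had an interaction of -0.44 (SE 0.05) and IPO4, an importin that carries ribosomal proteins and histones, of -0.45 (SE 0.06), and both ended lower in TUSC3 KO cells, by 0.14 and 0.18.

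**Figure D3:**
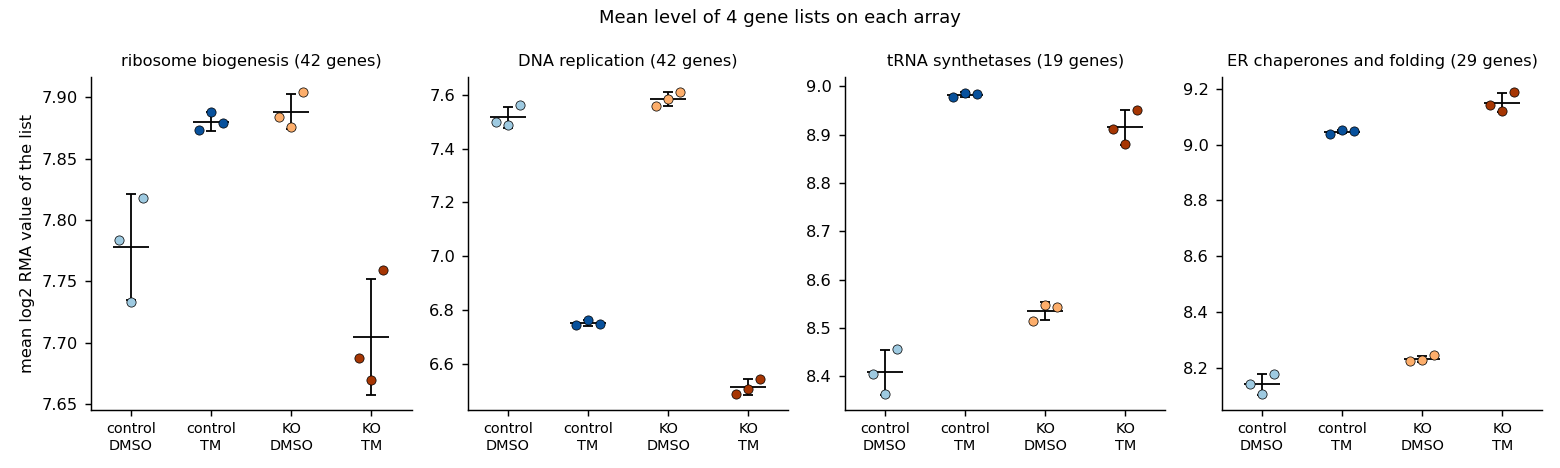
Mean log2 RMA value (y axis, own scale in each panel) of the tested genes of 4 lists on each array, in the 4 groups (x axis). Points are arrays and bars the mean ± SD of 3 arrays. The mean of the ribosome biogenesis list goes up under TM in control cells and down in TUSC3 KO cells, while DNA replication goes down and the ER chaperones go up in both.

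TM lowered 41 of 42 DNA replication genes in both genotypes, with medians of -0.75 in control cells and -1.12 in TUSC3 KO cells. For the interaction (median -0.32) 27 (64.3%) were called lower and none higher, beside 3.73% called lower among all genes. All 27 were amplified falls. MCM10, a DNA replication factor, went from 7.93, 7.87 and 7.95 to 6.51, 6.46 and 6.62 in control cells. In TUSC3 KO cells it went from 8.12, 8.15 and 8.19 to 6.11, 6.10 and 6.26 (interaction -0.61, SE 0.07, adjusted p = 0.00044). RRM2, the inducible subunit of ribonucleotide reductase, started alike at 8.44, 8.43 and 8.48 and at 8.41, 8.43 and 8.47, and ended at 7.50, 7.52 and 7.51 in control cells and 6.92, 7.06 and 7.03 in TUSC3 KO cells (interaction -0.49, SE 0.05, adjusted p = 0.00021). GINS2 and MCM5, parts of the helicase, had interactions of -0.53 and -0.48. PCNA, the sliding clamp, was an exception among the best known members: it fell by 1.51 and 1.53, and the difference of -0.02 had a 95% interval from -0.16 to 0.13.

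Of 46 genes of G2-M and mitosis, TM lowered 45 in control cells and all 46 in TUSC3 KO cells. For the interaction 11 (23.9%) were called lower and none higher, beside 3.73% called lower among all genes, and the list's median was -0.15. Besides CDC20, PLK1, the kinase of mitotic entry, fell by 0.45 and 0.92 (interaction -0.46, SE 0.05, adjusted p = 0.00015). AURKB, the kinase of the chromosomal passenger complex, fell by 0.74 and 1.12, and KIF4A, a chromosome-bound kinesin, by 0.33 and 0.74. CDK1 fell by 1.26 and 1.22, and its difference of 0.05 had a wide 95% interval, from -0.24 to 0.33. Cell cycle phase was not analysed here, and fewer cycling cells cannot be told apart from less RNA per cycling cell.

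Inflammatory genes under NF-kappaB were split (median -0.08), with 2 of 37 called higher and 6 lower, beside 4.18% and 3.73% of all genes. IL1A, the cytokine interleukin 1 alpha, was dim at 3.42, 3.41 and 3.53 in control cells under DMSO, 3.82, 3.78 and 3.72 under TM and 3.28, 3.49 and 3.59 in TUSC3 KO cells under DMSO, and reached 5.64, 5.41 and 5.74 in TUSC3 KO cells under TM. PTGS2, the inducible cyclooxygenase, fell from 9.49, 9.40 and 9.44 to 7.11, 7.30 and 7.26 in control cells and from 9.77, 9.80 and 9.80 to 8.45, 8.40 and 8.48 in TUSC3 KO cells, so that the genotypes were further apart under TM. On the lower side NFKB2, which encodes p100, rose by 0.80 and 0.25 (interaction -0.55, SE 0.06, adjusted p = 0.00024).

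CXCL2, a chemokine that draws neutrophils, was the only reversed gene of the list. It was 7.62 on all 3 control arrays under DMSO and 8.03 on all 3 under TM, and 8.60, 8.63 and 8.58 and then 8.38, 8.42 and 8.36 in TUSC3 KO cells (interaction -0.62, SE 0.04, adjusted p = 4.1e-06). Its relatives are near-identical in sequence, and shared probes could mix them. CXCL8 differed between the genotypes by 1.62 under DMSO and 1.77 under TM, but its interaction of 0.15 was not called. The promoter window of CXCL2 with a kappaB site, the letters GGG, any 2 bases and TTTCC, is shown since the gene leads the lower members of the list. It lies at chr4:74099254-74099283 (minus strand, GRCh38.p14, RefSeq), with the fixed letters in capitals.
CXCL2: ctggagctccGGGaaTTTCCctggcccggg
Such a site was found in 298 of 15341 promoters (1.94%), in 17 of 710 promoters of genes called higher (2.39%) and in 20 of 675 of genes called lower (2.96%).

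Interferon-stimulated genes had 8 called higher and 1 lower among 46, beside 4.18% and 3.73% of all genes. The list's median was 0.03, and 37 were not called. OAS1, a sensor of double-stranded RNA, fell from 6.74, 6.73 and 6.80 to 5.47, 5.65 and 5.67 in control cells and from 6.84, 6.79 and 6.87 to 6.37, 6.37 and 6.37 in TUSC3 KO cells (interaction 0.70, SE 0.07, adjusted p = 0.00015). HERC5, the ligase of ISG15, fell by 0.35 in control cells and rose by 0.18 in TUSC3 KO cells. IFI6 and IFIT1 had interactions of 0.40 and 0.37. MX1 had an interaction of -0.11, which was not called.

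Of 29 EGFR ligands and feedback genes of ERK signalling, 5 were called higher and 2 lower, beside 4.18% and 3.73% of all genes. ERRFI1 (MIG6), an inhibitor of EGFR, rose from 9.68, 9.65 and 9.66 to 10.05, 10.03 and 10.05 in control cells and from 9.04, 9.13 and 9.12 to 10.11, 10.14 and 10.20 in TUSC3 KO cells (interaction 0.67, SE 0.04, adjusted p = 6.2e-06). DUSP1, a phosphatase of MAP kinases, had a larger rise as well (interaction 0.45), and FOS, a part of AP-1, a smaller fall, of 0.77 against 1.53 (interaction 0.75, SE 0.14, adjusted p = 0.0064). EREG, the ligand epiregulin, rose by 1.73 and 1.13 (interaction -0.60, SE 0.07). The immediate early gene EGR1 had an interaction of 0.80 that was not called, because its arrays under TM ran from 4.59 to 5.72 in control cells and from 5.33 to 6.63 in TUSC3 KO cells.

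Epithelial and junction genes, with a median of 0.03, had 10 called higher and 1 lower among 38, beside 4.18% and 3.73% of all genes. CDH1 (E-cadherin) was between 9.06 and 9.09 on the 9 arrays of the other groups and 9.59, 9.62 and 9.59 in TUSC3 KO cells under TM (interaction 0.53, SE 0.03, adjusted p = 3.6e-06). ESRP1, which directs epithelial splicing, rose from 5.43, 5.45 and 5.61 to 6.62, 6.66 and 6.74 in control cells and from 5.61, 5.67 and 5.68 to 7.59, 7.42 and 7.70 in TUSC3 KO cells (interaction 0.74, SE 0.10, adjusted p = 0.00085). JUP, the junction protein plakoglobin, fell by 0.83 and 0.20, and ITGB4, an integrin of hemidesmosomes, rose by 0.38 in TUSC3 KO cells alone. A separate list held 18 lung epithelial and A549 markers, of which 6 were called higher and none lower, beside the same shares. Its median was 0.04, with 9 members above 0 and 9 below. MUC5B and MUC5AC of that list, secreted mucins of the airway, fell by 1.60 and 0.78 in control cells and had interactions of 0.87 and 0.74.

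Mesenchymal and matrix genes were evenly split, with 5 of 37 called higher and 5 lower, beside 4.18% and 3.73% of all genes. NT5E, the ectoenzyme CD73, fell by 0.87 and 0.20 and VCAN, the proteoglycan versican, by 0.83 and 0.45. THBS1 (thrombospondin 1) fell by 0.62 in TUSC3 KO cells alone, and TGFBI by 0.45 and 0.73. VIM (vimentin) had an interaction of -0.06 with a 95% interval from -0.15 to 0.03.

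Among autophagy and lysosome genes 7 of 35 were called higher and 3 lower, beside 4.18% and 3.73% of all genes. GABARAPL1, a protein of the autophagosome membrane, went from 6.67, 6.63 and 6.73 to 6.81, 6.83 and 6.89 in control cells and from 5.92, 5.98 and 5.89 to 6.86, 6.94 and 7.0 in TUSC3 KO cells, so that the genotypes came together under TM (interaction 0.84, SE 0.06, adjusted p = 1.8e-05). WIPI1, which binds the phosphoinositide of forming autophagosomes, rose by 1.74 and 2.57, from like starts (interaction 0.84, SE 0.08, adjusted p = 0.00014). NBR1, a cargo receptor, had an interaction of 0.31 and GLA, the lysosomal alpha-galactosidase, of -0.30. MAP1LC3B, the best known gene of the list, rose by 1.07 and 1.05.

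Of 32 glycolysis and hypoxia genes 5 were called higher and 3 lower, beside 4.18% and 3.73% of all genes. NDRG1, a stress gene induced by hypoxia, rose from 8.13, 8.20 and 8.22 to 8.77, 8.74 and 8.66 in control cells and from 7.0, 6.96 and 6.95 to 8.18, 8.27 and 8.13 in TUSC3 KO cells (interaction 0.68, SE 0.06, adjusted p = 5.3e-05). BNIP3L, a receptor of mitophagy, rose by 0.22 and 0.76 (interaction 0.55, SE 0.03, adjusted p = 4.6e-06), while HK2, a hexokinase, rose by 0.37 in control cells alone (interaction -0.34). For cholesterol and fatty acid synthesis 3 of 30 were called higher and 2 lower, beside the same shares of all genes. FASN, the fatty acid synthase, fell by 0.56 and 0.96, and SCD, the stearoyl-CoA desaturase, by 1.30 and 1.01.

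NRF2 targets, with a median of 0.09, had 7 of 30 called higher and 1 lower, beside 4.18% and 3.73% of all genes. GPX2, a glutathione peroxidase, fell by 1.18 and 0.71 (interaction 0.48, SE 0.05), and ABCC2 and EPHX1, of drug export and epoxide hydrolysis, each had an interaction of 0.25. OSGIN1 had one of -0.34. NQO1, the best known target, had an interaction of 0.03 with a 95% interval from -0.04 to 0.10. Cytosolic heat shock chaperones had 3 of 21 called lower, beside 3.73% of all genes, and none higher. Among the called members FKBP4, a cochaperone of HSP90, fell by 0.25 and 0.62. Of 29 proteasome genes 6 were called lower and none higher, with interactions of -0.24 for PSMC3 and PSMD2, and 3 of 12 housekeeping genes were called, of which GAPDH had the smallest value, -0.11 (adjusted p = 0.049).

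**Figure D4:**
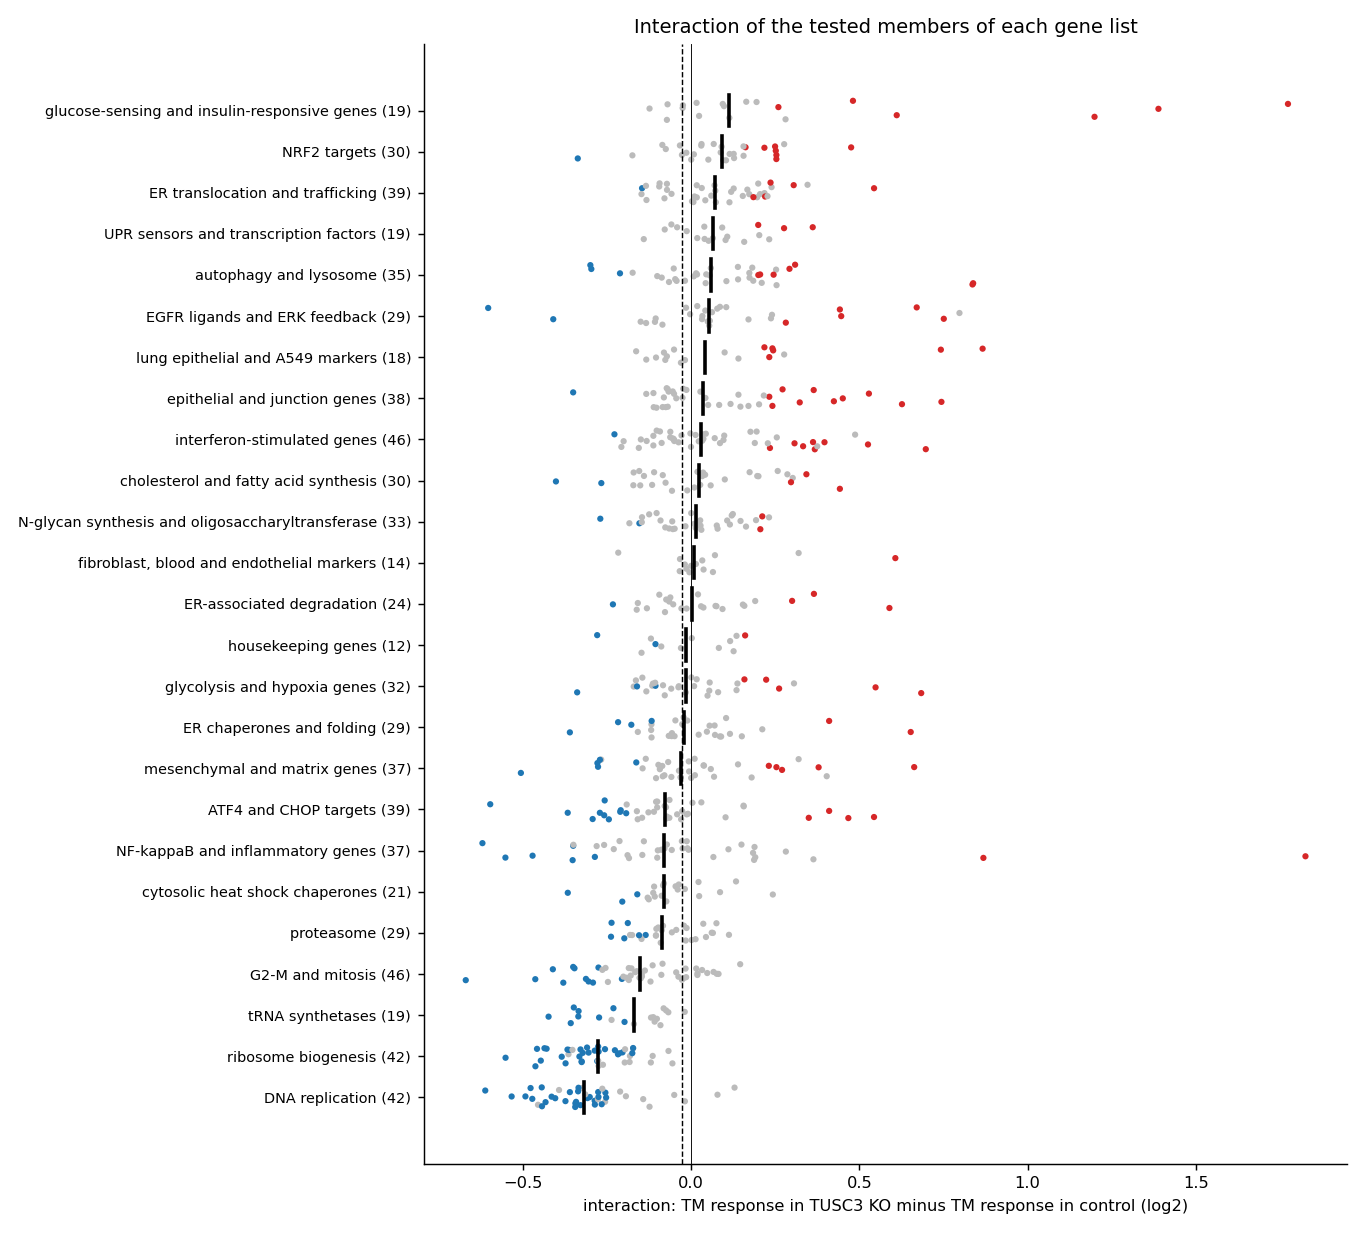
Interaction (x axis, log2) of the tested members of 25 gene lists (y axis, number tested in parentheses). Points are genes, red where called higher, blue where called lower and grey where not called, the black bar is the list's median and the dashed line the median of all 22411 genes. DNA replication and ribosome biogenesis lie to the left with medians of -0.32 and -0.28, and the ER chaperones straddle the line with a median of -0.02.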

How the data were processed

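RNA of A549 cells had been hybridised to GeneChip Human Transcriptome Array 2.0 arrays, 3 for each of 4 groups. The authors' deposited values are on the log2 scale and were made with RMA, which corrects background, equalises distributions between arrays and summarises probes. No source used here names its version or the annotation build. Of 70523 features, 23781 had 1 symbol, and the brightest feature stood for each of 22411 symbols. Array number and feature brightness limit the precision.

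Group means were fitted with limma 3.58.1 (R 4.3.3) over all 12 arrays with a variance trend, and p-values were adjusted (Benjamini-Hochberg) over all genes at a threshold of 0.05. The 95% intervals use the moderated SE and 8 degrees of freedom. The fit was tested on simulated data. The members and gene lists were chosen with earlier results of these data known, the lists from general knowledge. Genes were named by rank of the interaction (12 highest, 12 lowest), by class and by list (up to 4 called members and the best known), leaving out uncharacterised loci. Motifs were searched in RefSeq promoters of 15341 genes. Alternatives varied normalization, variance trend, replicate block, feature choice, dim genes, moderation, threshold and each array.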

Additional observations from a re-analysis of the deposited data

Results flagged for a closer look

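All values here come from a test of the difference between the TM responses of the genotypes (limma, adjusted p under 0.05). It picked out 936 genes with a positive and 837 with a negative interaction. A positive value can be a larger rise or a smaller fall in TUSC3 KO cells. The interactions of the 12 highest genes were 1.85 for CP, 1.83 for IL1A, 1.77 for IGFBP1, 1.44 for ANKRD30A, 1.39 for TXNIP, 1.35 for TFPI, 1.31 for SLITRK6, 1.29 for FER1L6, 1.22 for APOH, 1.20 for PDK4, 1.15 for MUC13 and 1.15 for CDH17. Those of the 12 lowest were -1.14 for CDH6, -1.03 for BCAT1, -0.98 for ITIH2, -0.93 for CTPS1, -0.80 for RAB39B, -0.78 for NAV3, -0.76 for GLIPR1, -0.75 for ASB4, -0.74 for SLC6A15, -0.73 for SRRM5, -0.71 for NEIL3 and -0.67 for CDC20. Genes whose response was called in opposite directions in the genotypes also included NOL6 (-0.55), CXCL2 (-0.62), NOLC1 (-0.44), IPO4 (-0.45), FLRT3 (1.07), RDH10 (1.06) and TFF1 (1.06). Groups of 3 arrays were not tested for outlying arrays.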

How the results depend on the processing

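The 19 other settings left the sign of every shared call as it was, and of the 128 called genes picked by the naming rule 98 stayed called under all that could test them. The 30 that lost the call under at least 1 were SRRM5, FKBP11, MIA3, COPB2, KDELR1, CREB3L1, GFPT1, DPM1, KRTCAP2, IFI6, IFIT1, P4HA1, STARD4, SC5D, OSGIN1, HSPH1, STIP1, PSMC3, PSMB6, NBR1, LYZ, CPS1, EPCAM, POLR2A, B2M, GAPDH, HSPA5, AARS1, SEC61A1 and VEGFA. Of the 15 genes named from lists made after the values were seen, RICTOR lost its call, at an adjusted p under 0.01. At an adjusted p under 0.01 there were 505 genes higher and 355 lower, with 165 amplified, 166 blunted, 262 gained, 219 lost and 45 reversed. With 1 array left out the counts ran from 683 to 1172 higher and from 532 to 969 lower, and from 244 to 453 amplified, 209 to 332 blunted, 355 to 684 gained, 293 to 520 lost and 72 to 133 reversed. The lower count moved by over 1.5 times without control TM replicate 2 (546), KO DMSO replicate 2 (556), KO DMSO replicate 3 (532) or control DMSO replicate 1 (1263 called in all, 714 of them higher). A fit without moderation called 766 higher and 698 lower. With the replicate number as a block 1188 were higher and 1069 lower. Of 18 same-numbered pairs 9 deviated together (correlation over 0.1). Pairs numbered 3 ran from 0.13 to 0.34, those numbered 1 from -0.06 to 0.17 and those numbered 2 from -0.10 to 0.39. Differently numbered pairs ran from -0.48 to 0.32. The main fit did not use the numbers, and whether they mark arrays handled together was not tested. The median of ribosome biogenesis stayed between -0.33 and -0.27 and that of DNA replication between -0.35 and -0.30. Of 1773 called genes 77 were dim in all groups, where a log2 difference may understate a change.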

Other observations

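Further groups were put together after the values of their members had been seen, so that their counts describe these data and support nothing. Among all genes 4.18% were called higher and 3.73% lower. Of 32 FOXO target genes 18 were called higher and none lower, with a median of 0.26. Beside IGFBP1, TXNIP and PDK4 these were led by TCP11L2, which rose by 0.53 in control cells and by 1.56 in TUSC3 KO cells (interaction 1.02), PPARGC1A, a coactivator of mitochondrial genes that fell by 0.33 and rose by 0.52 (0.85), and RICTOR, a part of mTORC2 (0.45). Of 30 gastrointestinal epithelial genes 14 were called higher and none lower (median 0.20), among them ANXA13 (1.15), CEACAM5 (0.96), AGR2 (0.77), KRT20 (0.76) and LGR4 (0.70), and 5 of the 14 were reversed. Of 37 plasma protein genes 7 were higher and 3 lower (median 0.01), with FGG at 0.90 and FGB at 0.78 beside FGA.

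Of 28 genes of nucleotide, folate-linked carbon and polyamine synthesis 18 were called lower and none higher (median -0.24). TM raised 12 of them in control cells and 5 in TUSC3 KO cells, and lowered 7 and 16. PFAS of purine synthesis and CAD of pyrimidine synthesis rose by 0.18 and 0.14 in control cells and fell by 0.34 and 0.27 in TUSC3 KO cells, and SRM, the spermidine synthase, had an interaction of -0.57. Of 26 genes of homologous recombination and DNA repair 11 were lower and none higher (median -0.25), with XRCC2 at -0.66 and DDIAS at -0.61, and of 26 clustered histone genes 8 were lower and none higher (median -0.18). Histone genes are near-identical to each other, and shared probes could mix them.

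A fit over all 70523 features called 2.38% of them. Of 45199 features with no symbol 334 were called higher and 259 lower (1.31%). Of 1543 features with several symbols 20 and 33 were called (3.43%). In that fit 572 of the 22411 tested genes were called higher and 427 lower (4.46%), beside 7.91% when these genes were fitted alone.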
